A study of Homo sapiens with 8 samples.

Results

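The 7 metallothionein genes MT1A, MT1E, MT1F, MT1G, MT1M, MT1X and MT2A were taken by symbol from tables of 58884 gene identifiers. All 7 were found in the tables of all 4 cell lines. Metallothioneins are small intracellular proteins rich in cysteine, whose thiol groups hold zinc and copper and quench oxidants. Their genes are switched on by metals through MTF1, a zinc-sensing transcription factor that binds metal response elements in their promoters, and also by glucocorticoids and oxidative stress. MT2A is usually the most abundant member in epithelial cells, and MT1G has been described as silenced by promoter methylation in papillary thyroid cancer. NR1D1, the gene manipulated in the study, encodes REV-ERB alpha, a heme-binding nuclear receptor that represses transcription within the circadian clock.

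Gene expression was measured by RNA-seq in 8 libraries of 4 human thyroid cancer cell lines, with 1 library in each group and no replicate library. Of the anaplastic carcinoma lines, 8505C and CAL-62 each received a control siRNA (siControl, labelled WT) or an siRNA that targets NR1D1 (siNR1D1, labelled NR1D1 knockdown). The papillary carcinoma line TPC-1 and the follicular carcinoma line FTC-133 received an empty vector (Vector, labelled WT) or with an NR1D1 vector (NR1D1, labelled NR1D1 overexpression). The siRNA sequences, the promoter of the vector and the time of harvest are not given in the sources used here, and the siRNA and the vector were never used in the same line. Levels below are in TPM, transcripts per 1000000, after each column was scaled to a sum of 1000000. Read numbers are estimates recovered from TPM and gene length, and every interval on a ratio is a 95% exact binomial interval on the split of those reads, which covers counting error only. In these bulk libraries, fewer cells with a transcript and less transcript per cell cannot be told apart.

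The recovered depth was 12.86 to 23.18 in units of 1000000 reads a library, and 3 reads, the limit that a count of 0 allows, equal 0.418 to 0.729 TPM for a transcript of 1 kb. With the siRNA, NR1D1 itself was at 11.2 TPM against 18.2 TPM in 8505C and at 10.1 TPM against 22.0 TPM in CAL-62. With the vector it was at 209 TPM against 190 TPM in TPC-1 and at 137 TPM against 105 TPM in FTC-133. These ratios were 1.1 and 1.3, and 36.4% and 29.2% of genes in those lines were at least as high. The thyroid markers TG and SLC5A5 were at or below 0.689 TPM in all 8 libraries, while the thyroid transcription factor PAX8 lay between 53.7 and 330 TPM in CAL-62, TPC-1 and FTC-133 and near 0.5 TPM in 8505C. Another such factor, NKX2-1, was at 63.4 and 100 TPM in 8505C, at 14.2 and 22.0 TPM in FTC-133 and at 0 TPM in CAL-62 and TPC-1. Transcripts of the mitochondrial genome took 57.22% of the TPM total in the CAL-62 control and 67.85% after siNR1D1, against 15.68% to 29.28% in the other 6 libraries. Because TPM are shares of a total, this moves with every CAL-62 value below.

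Coding sequences are shown to make plain what the members share, which the choice by symbol did not use. In GENCODE 29 on GRCh38 each of the 7 has 183 bases in 3 exons and 61 codons before the stop, of which 20 (32.8%) encode cysteine. Over the 21 pairs of members, identity of the coding sequence ran from 88.5% to 95.1% with a median of 91.8%. The sequences of the 3 members that turn up most below follow, with cysteine codons in capitals.
MT2A: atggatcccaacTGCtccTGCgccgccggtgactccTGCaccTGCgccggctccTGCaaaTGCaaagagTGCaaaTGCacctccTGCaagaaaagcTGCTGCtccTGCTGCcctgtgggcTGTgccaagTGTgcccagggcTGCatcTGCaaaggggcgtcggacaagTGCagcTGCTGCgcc
MT1E: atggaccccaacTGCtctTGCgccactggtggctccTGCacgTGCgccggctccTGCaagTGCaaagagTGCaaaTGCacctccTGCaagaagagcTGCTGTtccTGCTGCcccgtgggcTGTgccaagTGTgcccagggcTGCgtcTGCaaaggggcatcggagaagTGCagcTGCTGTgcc
MT1X: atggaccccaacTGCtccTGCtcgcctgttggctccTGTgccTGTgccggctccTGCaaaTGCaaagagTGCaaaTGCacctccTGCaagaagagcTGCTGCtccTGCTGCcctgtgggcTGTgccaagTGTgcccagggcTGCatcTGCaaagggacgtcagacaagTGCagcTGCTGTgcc
The coding sequences of MT2A and MT1E are 92.3% identical, as are those of MT2A and MT1X. The share of 50-base windows of the main transcript that also occur in the transcript of another gene was 4.9% for MT2A, 5.3% for MT1E, 5.8% for MT1A, 7.1% for MT1M, 3.6% for MT1F, 20.2% for MT1G and 45.1% for MT1X. With windows of 100 bases, MT1X still shared 19.1%, with the overlapping same-strand gene AC026461.1, which was at 0 TPM in every library, and the other 6 members shared 0.0%. Values of MT1X and MT1G are therefore the least certain of the 7. Reads that match near-identical copies, or that lie where genes overlap as for MT1X, can be split or dropped in counting. The 0 TPM of AC026461.1 does not settle whether MT1X reads were dropped there.

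The promoters bear on the same point, because the members share a regulator. The RefSeq promoter table (GRCh38.p14) holds MT2A and MT1X, and has no entry for MT1A, MT1E, MT1F, MT1G or MT1M. In the 250 bases before the RefSeq start, the metal response element, searched as TGCACNC or TGCGCNC on both strands, matched 7 times in MT2A and 4 times in MT1X. Of 35116 promoters, 24.8% hold at least 1 match, 0.37% hold 4 or more and 0.03% hold 7 or more. GENCODE starts MT2A 385 bases before the RefSeq start and MT1X 46 bases before it, so only single MT2A elements and the part of MT1X that lies before both starts are printed, with the elements in capitals.
MT2A element 168 bases before the start, chr16:56608406-56608432 (+): cccgcggcccGTGTGCAgagccgggtg
MT2A element 88 bases before the start, chr16:56608486-56608512 (+): agcgcggggcGTGTGCAggcagcgccc
MT1X upstream, chr16:56682220-56682423 (+): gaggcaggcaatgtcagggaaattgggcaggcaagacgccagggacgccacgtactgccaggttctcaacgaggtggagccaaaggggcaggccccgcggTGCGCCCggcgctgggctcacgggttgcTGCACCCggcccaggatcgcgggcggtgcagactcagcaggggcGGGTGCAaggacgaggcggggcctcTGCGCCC
The MT1X stretch carries all 4 of its matches in 204 bases. The half-site AGGTCA, to which REV-ERB and ROR receptors bind, had 0 matches on either strand of both windows, and 12.1% of promoters hold it. The MT2A window had 1 match to the AP-1 site TGACTCA and 1 to the antioxidant response element core TGACNNNGC, which start at the same base 104 bases before the start and overlap. These letter matches are descriptions and are no evidence of binding.

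The members lie within 76.0 kb of chromosome 16, from MT2A at chr16:56608199-56609497 to MT1X at chr16:56682424-56684196 on GRCh38. Between them, in order, come MT1E at chr16:56625475-56627112, MT1M at chr16:56632233-56633986, MT1A at chr16:56638666-56640087, MT1F at chr16:56657694-56660698 and MT1G at chr16:56666731-56668065. MT1G is on the minus strand and the other 6 are on the plus strand. Only 2 members, MT2A at one end of the cluster and MT1X at the other, were above 0 TPM in all 8 libraries. The members in between differed from line to line.

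**Figure D1:**
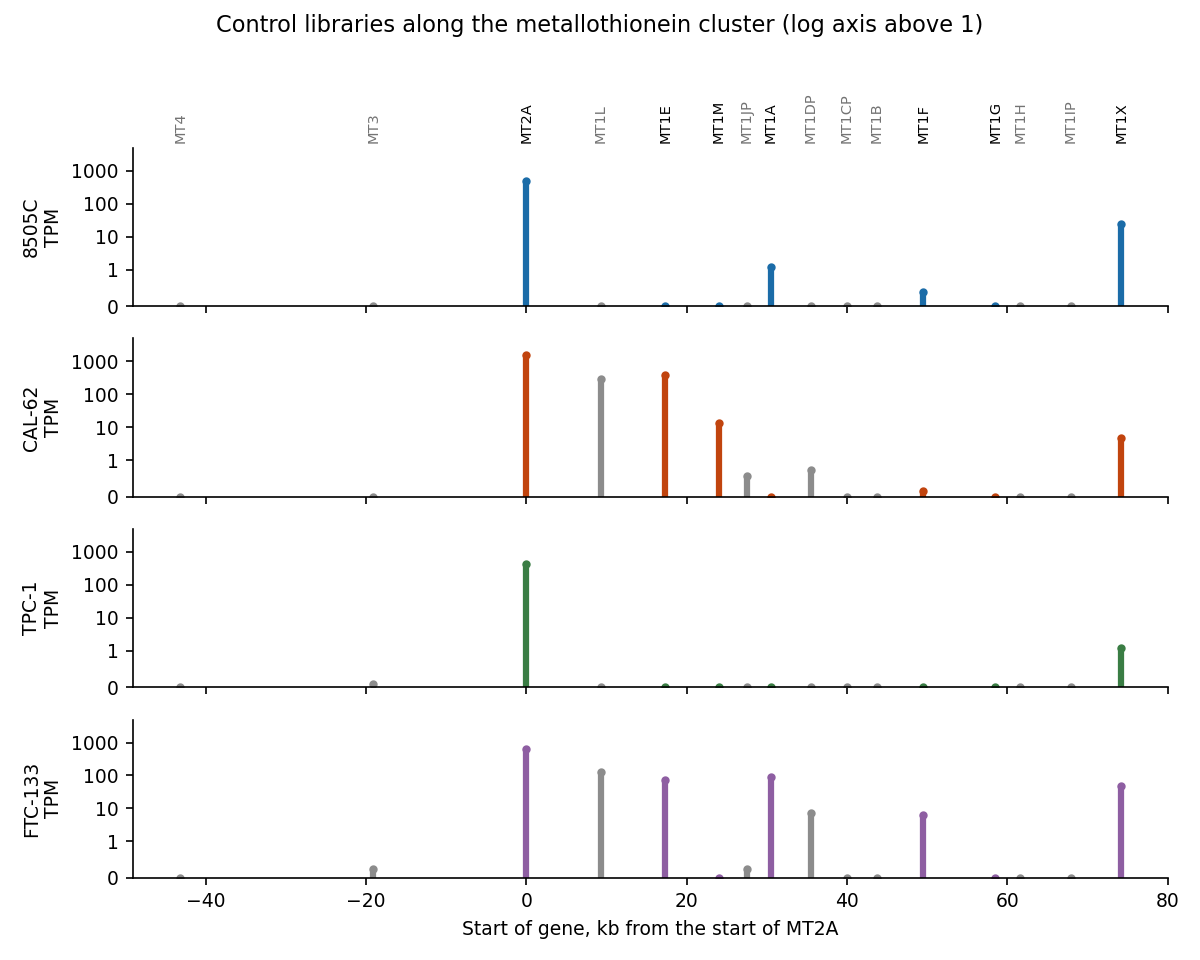
Level in the control library of each line (TPM, linear from 0 to 1 and logarithmic above) against the start of each gene in kb from the start of MT2A, with members in colour and other metallothionein genes and pseudogenes in grey. MT2A at 0 kb and MT1X at 74.2 kb have bars in every line, while MT1E at 17.3 kb has a bar in CAL-62 and FTC-133 only among the control libraries.

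In control cells the 7 members summed to 2004 TPM in CAL-62, 852 TPM in FTC-133, 512 TPM in 8505C and 432 TPM in TPC-1. The treated libraries of the same lines summed to 618, 883, 718 and 475 TPM. With both libraries of a line taken as its range, CAL-62 overlapped 8505C and FTC-133, while FTC-133, 8505C and TPC-1 did not overlap one another. The share of all genes whose line ranges do not overlap was not counted. When each column was rescaled without mitochondrial-genome genes, CAL-62 summed to 4684 and 1921 TPM and overlapped no other line. MT2A made up 74.7% to 99.7% of the summed level in every library.

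MT2A, the main metallothionein of these lines, stood at 487 TPM in the 8505C control, 1598 TPM in CAL-62, 431 TPM in TPC-1 and 636 TPM in FTC-133. Its rank among all genes in those control libraries was 204, 28, 278 and 174. In the treated libraries MT2A was at 680, 475, 471 and 666 TPM, in the same order of lines. The CAL-62 control stood far above the other 7 libraries, which lay between 431 and 680 TPM. On the TPM scale the ranges of 8505C, CAL-62 and FTC-133 overlapped one another, so their order is not settled on that scale. The MT2A ranks in the treated libraries were 135, 59, 227 and 172, so by rank CAL-62 stood above the other lines in both libraries. MT2A made up 79.8% and 76.9% of the CAL-62 control and treated sums. Those sums overlapped no other line once mitochondrial-genome genes were left out.

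MT1X, an isoform that also binds zinc and cadmium, was at 23.7 TPM in the 8505C control, 4.68 TPM in CAL-62, 1.18 TPM in TPC-1 and 47.5 TPM in FTC-133. The treated libraries held 35.0, 3.17, 1.18 and 66.3 TPM. The order FTC-133, 8505C, CAL-62, TPC-1 held with no overlap between the ranges of the lines, although each TPC-1 value rests on 12 reads. How many of all genes also separate the lines was not counted, so the separation is a description only. The MT1X order was not that of MT2A, since CAL-62 had the highest control MT2A and the next to lowest MT1X.

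MT1E, another metal-binding isoform, was at 387 TPM in the CAL-62 control and 71.1 TPM in the FTC-133 control, and had 0 reads in the 8505C and TPC-1 controls. The treated libraries held 128 TPM in CAL-62, 84.3 TPM in FTC-133 and 3.07 TPM in TPC-1, and again 0 reads in 8505C. MT1M was seen in CAL-62, at 13.9 TPM in the control and 10.7 TPM after siNR1D1, and otherwise only as 0.951 TPM, about 4 reads, in the FTC-133 library with the NR1D1 vector. CAL-62 thus held MT1E and MT1M, which are adjacent members, while the next member along the cluster, MT1A, was at 0 reads there.

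MT1A was at 90.4 TPM in the FTC-133 control and 57.7 TPM with the NR1D1 vector. It was at 1.17 and 1.96 TPM in 8505C, on 2 and 4 reads, and at 0 reads in both libraries of CAL-62 and of TPC-1. MT1F was at 6.11 and 6.43 TPM in FTC-133, between 0.15 and 1.05 TPM in 8505C and CAL-62, and at 0 reads in TPC-1. MT1G had 4 reads, 1.3 TPM, in the FTC-133 library with the NR1D1 vector and 0 reads in the other 7 libraries. FTC-133 thus had more than 3 reads of 5 members in the control and of all 7 with the vector, against 2 members in the TPC-1 control and 3 with the vector.

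**Figure D2:**
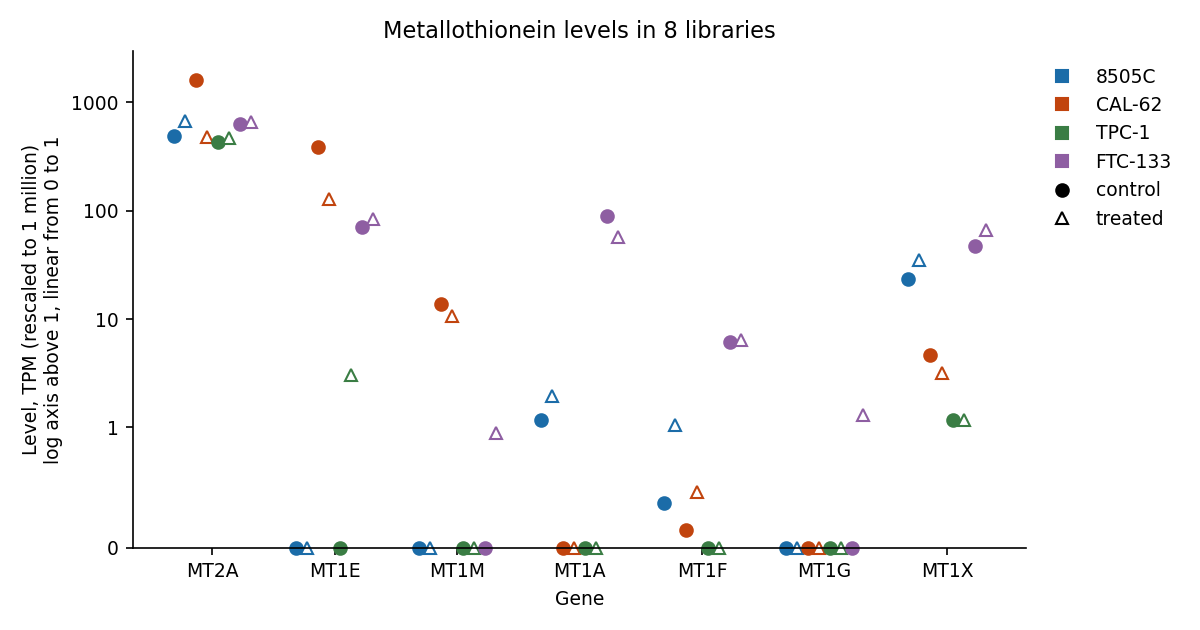
Level of each metallothionein (TPM, linear from 0 to 1 and logarithmic above) in the 8 libraries, with filled circles for control and open triangles for treated libraries and 1 colour for each line. MT2A lies between 431 and 1598 TPM in all 8 libraries, whereas MT1E spans 0 to 387 TPM and MT1A 0 to 90.4 TPM.

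Levels of different members depend on the length used for them. The deposited values are per a length close to the summed exon length of each gene in GENCODE 29, which is 1773 bases for MT1X against 450 bases for its main transcript, and 1299 against 786 bases for MT2A. For MT2A, MT1X, MT1F and MT1M the recovered reads were not all whole numbers. The length behind their deposited values thus differed somewhat from GENCODE 29, and their read numbers and intervals are approximate. Per length of the main transcript, a setting chosen after the data were seen, the FTC-133 control held about 1050 TPM of MT2A, 187 TPM of MT1X, 106 TPM of MT1E, 90.4 TPM of MT1A and 16.7 TPM of MT1F. MT1X then came next after MT2A in FTC-133, whereas as deposited it stood behind MT1A and MT1E. Ratios between libraries of one gene are not touched by this choice.

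With siNR1D1, the most abundant metallothionein, MT2A, went in opposite directions in the 2 siRNA lines. In CAL-62, MT2A went from 1598 to 475 TPM, a ratio of 0.297 with an interval of 0.287 to 0.308, or 3.36-fold lower. MT1E was 3.02-fold lower there, at a ratio of 0.331 with an interval of 0.306 to 0.358. MT2A and MT1E, on about 14916 and 2923 control reads, thus differed between the CAL-62 libraries by far more than counting error. On the log2(TPM + 1) scale their differences were -1.75 and -1.59, where the median of all genes in CAL-62 was -0.278. Only 1.9% of genes were as low as MT2A and 2.74% as low as MT1E.

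The less abundant members of CAL-62 were less clear. MT1X had a ratio of 0.678 with an interval of 0.428 to 1.05, and MT1M a ratio of 0.771 with an interval of 0.547 to 1.08, so both intervals include 1. Rescaled without mitochondrial-genome genes, the log2 difference of MT1M turned from -0.35 to 0.04, and those of MT2A and MT1E were -1.34 and -1.18. MT1F, at 0.15 and 0.462 TPM on 2 and 5 reads, was higher in the treated library. Of the 5 members with more than 3 reads in CAL-62, 4 were lower and 1 was higher, and 2, MT2A and MT1E, were lower by 2-fold or more. The median of all genes in the line was itself lower, at -0.278, so most members being lower does not set them apart. In the same line 10.7% of all genes with a mean of at least 1 TPM were lower by 2-fold or more and 5.3% were higher by as much. The pseudogene MT1L, which lies between MT2A and MT1E, went from 292 to 139 TPM in CAL-62, so the 3 metallothionein loci with over 100 TPM in that line were all lower after siNR1D1. Fibroblast markers summed to 98.1 TPM in the CAL-62 control and 526 TPM after siNR1D1, of which COL1A1 gave 58.8 and 456 TPM, with 3 of the 4 measured markers higher and PDGFRA at or below 0.0146 TPM. Their part in the CAL-62 result was not tested, nor was that of the mitochondrial share.

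In 8505C, MT2A went from 487 to 680 TPM, a ratio of 1.4 with an interval of 1.33 to 1.47. MT1X went from 23.7 to 35.0 TPM, a ratio of 1.47 with an interval of 1.22 to 1.77. Both differences were larger than counting error, and their log2 values of 0.48 and 0.54 lay above the all-gene median of 0.048. Genes at least as high numbered 28.0% of all genes for MT2A and 25.6% for MT1X, so neither stood out from the line as a whole. MT1A and MT1F rested on 2 to 10 reads a library, with ratios of 1.68 (interval 0.241 to 18.6) and 2.8 (interval 0.72 to 15.8). All 4 members with more than 3 reads were higher in the siNR1D1 library and 0 passed 2-fold on the log2(TPM + 1) scale, where 11.9% of genes were higher and 5.86% lower by 2-fold or more. Immune markers summed to 22.9 and 85.7 TPM in the 8505C control and treated libraries, nearly all of it CD14 at 22.3 and 85.2 TPM with PTPRC at or below 0.0212 TPM. Endothelial markers summed to 49.6 and 145 TPM, of which CDH5 gave 46.8 and 140 TPM, with VWF at or below 0.374 TPM. The part of these markers in the 8505C values was not tested.

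With the NR1D1 vector, MT2A differed little in either line, and NR1D1 itself differed little in TPC-1, at a ratio of 1.1. In TPC-1, MT2A went from 431 to 471 TPM, a ratio of 1.09 with an interval of 1.04 to 1.15, and MT1X was at 12 reads in both libraries. MT1E went from 0 to 19 reads, at least 6.32-fold higher when the control is set at the floor of 3 reads, while the counting interval of the ratio reaches down to 4.66. MT1E was the 1 member of the 3 with more than 3 reads in TPC-1 that passed 2-fold, where 6.28% of all genes were higher and 5.25% lower by as much, and 1.35% of genes were as high as MT1E.

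In FTC-133, MT2A had a ratio of 1.05 with an interval of 0.998 to 1.1, which includes 1. MT1X was higher, at a ratio of 1.4 with an interval of 1.22 to 1.61, and MT1E slightly higher, at 1.18 with an interval of 1.02 to 1.38. MT1A went the other way, from 90.4 to 57.7 TPM, a ratio of 0.638 with an interval of 0.488 to 0.83 on 155 and 94 reads. MT1F had a ratio of 1.05 with an interval of 0.696 to 1.59. FTC-133 thus had members on both sides of 1 within the same 76.0 kb. Fibroblast markers summed to 2550 TPM in the FTC-133 control and 1682 TPM with the vector, with 1 of the 4 measured markers higher, 3 lower and PDGFRA at 0 TPM. Epithelial markers summed to 64.5 and 179 TPM, with 4 of 5 higher, and KRT8 had a log2 difference of 2.59. The part of these markers in the FTC-133 values was not tested. Of the 7 members with more than 3 reads in FTC-133, 6 were higher and 1 was lower. Only 1, MT1G at a log2(TPM + 1) difference of 1.2, passed 2-fold. Of the 5 members with control reads, 4 were higher, 1 was lower and 0 differed by 2-fold. MT1G and MT1M had 4 reads each with the vector against 0, and their counting intervals reach down to 0.694. Among genes with a mean of at least 1 TPM in FTC-133, 9.76% were higher and 6.91% lower by 2-fold or more.

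**Figure D3:**
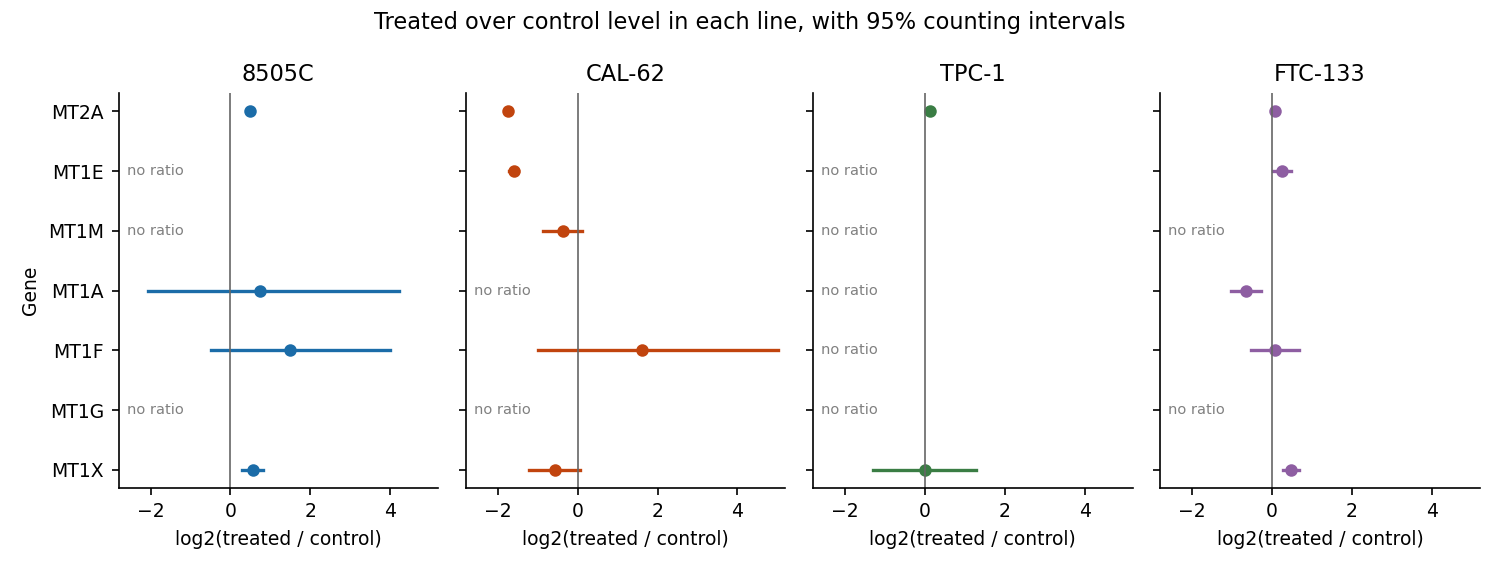
Treated over control level of each member in each line on a log2 scale, with points for the ratio of TPM and bars for the 95% counting interval, and "no ratio" where the control or both libraries had 0 reads. MT2A and MT1E in CAL-62 lie near a ratio of 0.3 with intervals narrower than the points, and MT1A and MT1F in 8505C have intervals across 1.

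The median log2 difference over members with more than 3 reads was 0.51 in 8505C (4 members), -0.45 in CAL-62 (5 members), 0.13 in TPC-1 (3 members) and 0.24 in FTC-133 (7 members). The medians over all genes were 0.048, -0.278, -0.02 and 0.054. The shares of all genes higher or lower by any amount were not counted. The counts of members, neighbours and listed genes by direction therefore lack that background. With members that had 0 control reads set at their bound and no pseudocount, the members' medians were 0.65, -0.56, 0.12 and 0.24.

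**Figure D4:**
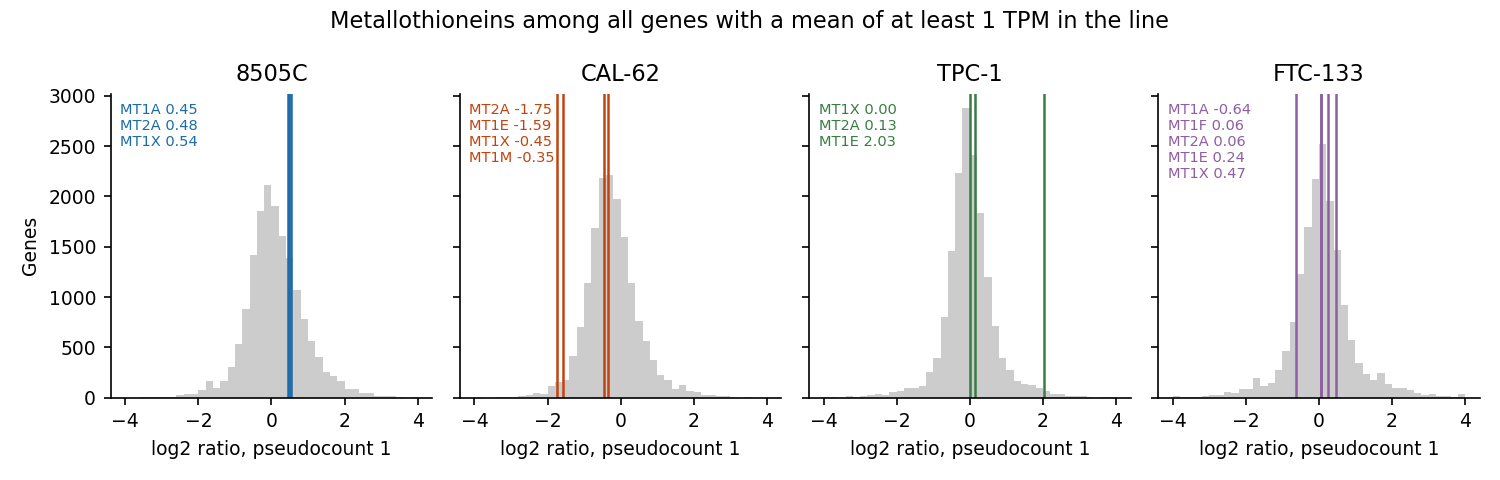
Number of genes by log2 difference (treated minus control on log2(TPM + 1), values beyond 4 in the end bins) in each line among genes with a mean of at least 1 TPM, with vertical lines at the members that reach that mean. In CAL-62, MT2A at -1.75 and MT1E at -1.59 lie in the lower tail, while the 8505C members lie between 0.45 and 0.54 within the bulk.

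Across lines, the comparisons were fitted with limma on log2(TPM + 1) over 17595 genes with a mean of at least 1 TPM, which 6 of the 7 members reached and MT1G did not. The siRNA comparison asked what siNR1D1 did in 8505C and CAL-62 together, and called 0 genes (0.0%) at a Benjamini-Hochberg adjusted p under 0.05, with 2114 genes under an unadjusted p of 0.05. In limma's siRNA comparison MT2A had a log2 difference of -0.63 (SE 0.52, adjusted p = 0.645) and MT1E of -0.79 (SE 0.54, adjusted p = 0.577). These averages join a higher and a lower MT2A value, and MT1E was at 0 reads in 8505C. The median over the 6 members was -0.06 and over all genes -0.07.

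The vector comparison in TPC-1 and FTC-133 also called 0 genes (0.0%) by limma, with 784 under an unadjusted p of 0.05. MT1E had the largest member difference there, 1.13 (SE 0.54, limma adjusted p = 1.0), and it was 0.24 without TPC-1. MT2A was at 0.10 (SE 0.52, limma adjusted p = 1.0). This SE comes from a spread shared with the siRNA lines, where MT2A went in opposite directions. The members' median was 0.17 and that of all genes 0.0.

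Setting the library with more NR1D1 by label against the other in all 4 lines, limma called 0 genes (0.0%), with 720 under an unadjusted p of 0.05. MT1E was 0.96 higher on the log2 scale with more NR1D1 (SE 0.37, unadjusted p = 0.0334, limma adjusted p = 0.938). It was the 1 member of the 6 tested under an unadjusted limma p of 0.05. MT1E was higher in 3 of 3 lines with any MT1E reads, by 3.02-fold in CAL-62, with 19 against 0 reads in TPC-1, and by 1.18-fold in FTC-133. In FTC-133, 37.2% of genes were at least as high as MT1E. The share of all genes with 1 direction in those lines was not counted. The MT1E value depends on the 0 reads of the TPC-1 control: it was 1.71 with a pseudocount of 0.1, 0.62 with a pseudocount of 5 and 0.61 without TPC-1. MT2A was at 0.36 (SE 0.36, limma adjusted p = 0.949), lower with more NR1D1 in 8505C and higher in the other 3 lines, and it turned to -0.10 without CAL-62 and was 0.65 without 8505C. The members' median was 0.21 against 0.06 for all genes. The test of whether siRNA and vector effects differ, each oriented by NR1D1, called 0 genes (0.0%) by limma with 1653 under an unadjusted p of 0.05, and MT2A had a difference of 0.54 (SE 0.74, adjusted p = 0.819). Without 8505C the MT2A value was 1.65, and without CAL-62 it turned to -0.58. Approach and line cannot be told apart in this test. No member passed in any of the 4 comparisons. The siRNA, vector and difference tests share 1 estimate of spread from a fit of all 8 libraries. Their p-values thus do not measure the spread within either approach alone. All p-values rest on differences between these lines, with the spread moderated by limma.

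The regulators of the family were read from a list of 3 metal-sensing genes. MTF1, the metal-responsive activator of metallothionein genes, was at 26.0 TPM in the 8505C control and 8.03 TPM with siNR1D1, and at 9.15 and 3.4 TPM in CAL-62. With the vector it was at 22.9 TPM against 27.2 TPM in TPC-1 and at 18.8 TPM against 16.9 TPM in FTC-133. MTF1 was thus lower in both siRNA lines, including 8505C where MT2A and MT1X were higher. Its siRNA difference in limma was -1.39 (SE 0.29, unadjusted p = 0.00224, adjusted p = 0.246). SP1, a general promoter-binding factor, had log2 differences of -0.15 in 8505C, -0.41 in CAL-62, -0.08 in TPC-1 and 0.37 in FTC-133, and EP300, a histone acetyltransferase and coactivator, had -0.24, -0.32, -0.56 and 0.27.

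Zinc transporters set the metal supply that metallothioneins buffer. SLC30A1, the plasma membrane zinc exporter and itself an MTF1 target, had control and treated levels of 16.6 and 12.8 TPM in 8505C, 24.2 and 39.7 TPM in CAL-62, 42.2 and 52.7 TPM in TPC-1, and 28.5 and 17.7 TPM in FTC-133. In the siRNA lines its direction was the reverse of that of MT2A. The importer SLC39A10 had 19.5 and 44.9 TPM in 8505C, then 32.5 and 63.6 TPM in CAL-62, and SLC39A8 had log2 differences of -1.11 and 0.87 in those lines. SLC30A9, a mitochondrial zinc transporter, had -0.38 and -0.51. Of 10 zinc exporters 6 were tested and of 14 zinc importers 10, and 0 passed in any comparison, with siRNA medians of 0.0 and -0.07.

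Copper is the other metal bound by the family. SLC31A1, the copper importer, had log2 differences of -1.02 in 8505C and -0.98 in CAL-62 with siNR1D1, and of 0.04 in TPC-1 and 0.48 in FTC-133 with the vector. SCO1, which delivers copper to cytochrome oxidase, had -0.95, -1.21, -0.73 and 0.38. Of 10 copper-handling genes 8 were tested and 0 passed, with a siRNA median of -0.19.

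Glucocorticoids and oxidants also induce metallothioneins. NR3C1, the glucocorticoid receptor, was at -0.10 in 8505C, -0.21 in CAL-62, 0.50 in TPC-1 and -0.86 in FTC-133 on the log2 scale. Its targets CEBPD and SGK1 stood at -1.14 and -0.40 in 8505C, then at -1.22 and -1.98 in CAL-62, whereas TSC22D3, named after its values were seen, was at 1.11 and 0.72. Of the 8 measured genes of that list 4 were higher and 4 lower in 8505C, and 3 higher and 5 lower in CAL-62. Of its 9 genes 8 were tested and 0 passed, with a siRNA median of -0.20. The NRF2 list holds 10 genes, namely NFE2L2, which encodes NRF2, its inhibitor KEAP1 and 8 targets. All 10 were tested and 0 passed by limma, with a siRNA median of -0.75 against -0.07 over all genes. Of the 10, 5 were under an unadjusted limma p of 0.05, NFE2L2 among them, against 2114 of all 17595 genes. The same count was 4 of 8 in the glucocorticoid list and 3 of 10 among the zinc importers. NQO1, a quinone reductase, was lower by log2 values of -0.80 in 8505C and -1.16 in CAL-62. GCLC and GCLM, which make glutathione, stood at -1.32 and -0.97 in the first line and at -1.0 and -1.21 in the other. In 8505C, 8 of the 10 genes of the NRF2 list were lower and 2 were higher, while MT2A and MT1X were higher. MT1A and MT1F were also higher there, with intervals that include 1. A link between the list and the metallothioneins was not tested.

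Genes beside the cluster were compared to place the members in their region. OGFOD1, a neighbour on the MT4 side, had log2 differences of -0.34, -0.99, -0.62 and 0.37, and HERPUD1, an endoplasmic reticulum stress gene on the MT1X side, had -0.22, -0.55, 1.02 and 0.40. All 6 measured neighbours were lower in CAL-62, with a median of -0.65, where the median of all genes was -0.278. Of these, 0 were lower by 2-fold or more, against 10.7% of all genes. In 8505C, 4 of 6 were lower, with a median of -0.13 against 0.048 over all genes. MT2A lay at -1.75 in CAL-62 and at 0.48 in 8505C. Whether the region moved as a whole was not tested. Of the 6 neighbours tested 0 passed in any comparison.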

How the data were processed

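Deposited tables of 8 libraries were used. The submitters' processing notes name Trimmomatic 0.38, featureCounts 2.0.0 and the build GRCh38. Which aligner, annotation release and strand setting were used is not given in the sources used here. For 8505C and CAL-62 the authors deposited TPM, whose columns sum to 1000000. The tables deposited for TPC-1 and FTC-133 are named TPM but sum to 253330.3 to 261469.4 and match FPKM over GENCODE 29 exon lengths, so they were read as FPKM and every column was rescaled to 1000000. Levels of TPC-1 and FTC-133 were thus set beside those of the other lines across separately normalized tables.

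Reads were recovered as value times exon length, and 72.2% to 74.6% of values lay within 0.02 of a whole number, so no count model was run. limma 3.58.1 (R 4.3.3) with a mean-variance trend took log2(TPM + 1) of the genes whose mean was at least 1, with a term for cell line and a Benjamini-Hochberg threshold of 0.05. Its script was tested on simulated data. Within a line, 2-fold differences were counted without a test. Named were all 7 members, in lists of up to 4 genes every gene, in longer lists the 2 with the largest mean absolute log2 ratio among genes with a mean of at least 1, and SLC30A1, MTF1, NR3C1 and NQO1 always. Every other listed metallothionein gene or pseudogene with a mean of at least 1 was also named. The list of 13 others did not hold MT1XP1. Cell type markers, and the few other genes named beside a list's sum or count, fall outside this rule and were chosen after their values were seen. The members and lists were chosen with earlier results of these data known. Other pseudocounts, filters, scalings, prior spreads and the omission of each line were tried.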

Additional observations from a re-analysis of the deposited data

Results flagged for a closer look

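MT2A stood out because the same siRNA contrast gave opposite directions in the 2 lines. The log2 difference was 0.48 in 8505C and -1.75 in CAL-62. Each line has 1 library in each group, and the difference between the lines was not tested.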

How the results depend on the processing

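With a mean of at least 5 TPM required, limma called 77 genes in the siRNA comparison, 7 in the vector comparison and 7 in the test of their difference, where the main filter called 0, and 0 of them were members. Over all 12 settings, the lowest adjusted p of a member was 0.412, for MT1E with siNR1D1. The median over members in 8505C was 0.63 with a pseudocount of 0.1 and 0.33 with a pseudocount of 5, and that of CAL-62 was -1.59 over members of at least 5 TPM. Rescaled without mitochondrial-genome genes, the control sums were 724 TPM in 8505C, 4684 TPM in CAL-62, 523 TPM in TPC-1 and 1030 TPM in FTC-133. As deposited they were 109 in TPC-1 and 223 in FTC-133. With all 20 listed metallothionein genes and pseudogenes they were 2300 in CAL-62 and 986 in FTC-133. Centred on the median gene, MT2A and MT1E in CAL-62 were at -1.47 and -1.31. The counts of called genes were 0 in every fit that left out a line. The fits were paired by cell line through the line term. No paired analysis was possible by replicate number, because the labels give none. The limits are that 1 library stands for each group and that siRNA and vector were used in different lines. The direction of a member is also within counting error wherever its interval includes 1. That held for members under about 10 reads and for some with more, such as MT1M in CAL-62 and MT2A in FTC-133.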

Other observations

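Metallothionein pseudogenes were compared with the members beside them. MT1L was at 126 and 132 TPM in the FTC-133 control and treated libraries, on 224 and 223 reads, and at 292 and 139 TPM in CAL-62, and had 0 reads in 8505C and TPC-1. MT1E, on one side of MT1L, was likewise at 0 reads in 8505C and in the TPC-1 control, but had 19 reads in TPC-1 with the NR1D1 vector. MT2A, on the other side, was at 431 TPM or more in all 8 libraries. MT1L shares 4.4% of its 50-base windows with another gene. MT1DP went from 7.25 to 1.27 TPM in FTC-133 on 6 and 1 reads. The genes MT1B, MT1H and MT4 were at 0 reads in all 8 libraries, although the MT1H promoter holds 8 matches to the metal response element.

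The genes whose levels tracked the summed members most closely over the 8 libraries, among 11146 genes with a mean of at least 5 TPM, were ABHD10, CDK5RAP3, ERV3-1, EBLN3P and SNORD69. Their Pearson correlations were 0.906, 0.879, 0.878, 0.871 and 0.857, given as a description because libraries of a line share its cells. All 5 were highest in the CAL-62 control, as were the summed members. ABHD10, a mitochondrial thioesterase, was at 80.8 TPM there and at 64.9 TPM or less in the other 7 libraries.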
